A study of Arabidopsis thaliana with 2 samples.

Results

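Of the 14718 LHY-bound regions listed for Arabidopsis thaliana seedlings, 496 lay in pericentromeric chromatin. Members were chosen by position alone: the midpoint of the region had to fall between 12.5 and 17.5 Mb on chromosome 1, 1.5 and 6.5 Mb on chromosome 2, 11 and 16.5 Mb on chromosome 3, 1.5 and 5.5 Mb on chromosome 4, or 9.5 and 14.5 Mb on chromosome 5. The rest of the genome is called the chromosome arms here. LHY binding was measured by chromatin immunoprecipitation and sequencing (ChIP-seq) in wild-type plants of the Ws ecotype and in lhy-21, an LHY knock-out line in the same ecotype. Both groups were whole seedlings, 2 weeks of age, collected 2 h after dawn and fixed with 1% formaldehyde for 10 min, and both were precipitated with an antiserum to full-length LHY. For each genotype, 9 immunoprecipitated samples were pooled into 1 library. A listed region is one with an excess of reads in wild type over lhy-21. With 1 library a genotype, no value has a replicate check, no p-value is given, and all 95% intervals are exact and cover counting error only.

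LHY is a DNA-binding protein of the MYB family and a core part of the plant circadian clock. It peaks around dawn and is best known for repressing evening-phased clock genes. Pericentromeric chromatin flanks the centromeres. It is rich in transposons and their remnants, carries dense DNA methylation and repressive histone marks, and holds a thin population of ordinary genes among long repeat-rich stretches.

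The windows carried far fewer regions per base pair than the arms, and also fewer per gene. They cover 24.5 Mb, which is 20.6% of the 119.1 Mb measured, and held 3.37% of all regions (interval 3.08 to 3.67%). This gave 20.2 regions per Mb (18.5 to 22.1), against 150.3 per Mb in the arms, a ratio of 0.135 (0.123 to 0.147). The windows also hold few protein-coding genes, 2014 of 27432, or 82.2 per Mb against 268.6 per Mb in the arms. Counted per gene, the gap was smaller, with 24.6 regions per 100 protein-coding genes (22.5 to 26.9) against 56.0 in the arms, a ratio of 0.440 (0.402 to 0.481).

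The 5 windows differed among themselves less than each differed from its own arms. Chromosome 1 had 118 regions, chromosome 2 had 96, chromosomes 3 and 4 had 88 each, and chromosome 5 had 106. The density was 23.6 regions per Mb on chromosome 1, 19.2 on chromosome 2, 16 on chromosome 3, 22 on chromosome 4 and 21.2 on chromosome 5, while the arms ranged only from 146.8 per Mb on chromosome 4 to 154.4 on chromosome 2. Per 100 protein-coding genes, the windows gave 28.4 regions on chromosome 1, 19.5 on chromosome 2, 21.1 on chromosome 3, 30.4 on chromosome 4 and 26.6 on chromosome 5. The order per Mb and the order per gene were not the same, since the window of chromosome 4 holds 289 protein-coding genes and that of chromosome 2 holds 493. The ratio of window to arm per gene was lowest on chromosome 2, at 0.328 (0.265 to 0.402), and highest on chromosome 4, at 0.553 (0.442 to 0.685). These intervals, of the lowest and highest of 5 chromosomes, do not overlap, whereas neighbouring chromosomes in this order had overlapping intervals. Without chromosome 2 from 3 to 4 Mb, a choice made after seeing the data, its interval was 0.351 to 0.533 and overlapped that of chromosome 4. The intervals treat each region as separate, although 128 members had another member within 1 kb, so they may be too narrow.

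Regions were concentrated at the outer edges of the windows. Among 49 bins of 0.5 Mb, 11 bins with at least 20 regions held 276 of the 496, while 19 bins with under 5 held 21 and 8 bins held none. The fullest bin was the first of chromosome 5, from 9.5 to 10 Mb, with 39 regions and 102 protein-coding genes. The outer 1 Mb on both sides of each window held 372 regions at 37.2 per Mb, and the inner 14.5 Mb held 124 at 8.55 per Mb. Per 100 genes the values were 28.5 in the outer and 17.5 in the inner part, a ratio of inner to outer of 0.612 (0.496 to 0.752). Chromosome 4 was lopsided: the 3 bins from 1.5 to 3 Mb held 21, 32 and 24 regions, while the 5 bins from 3 to 5.5 Mb held 1, 0, 3, 1 and 6. Across the 49 bins, the number of regions was higher where there were more protein-coding genes (Pearson r = 0.759, Spearman rho = 0.770) and lower where there were more pseudogenes (r = -0.689, rho = -0.636). In this annotation the pseudogenes are 3432 in the windows and 1411 in the arms. Neighbouring bins share their place on the chromosome, so these correlations are descriptions.

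**Figure D1:**
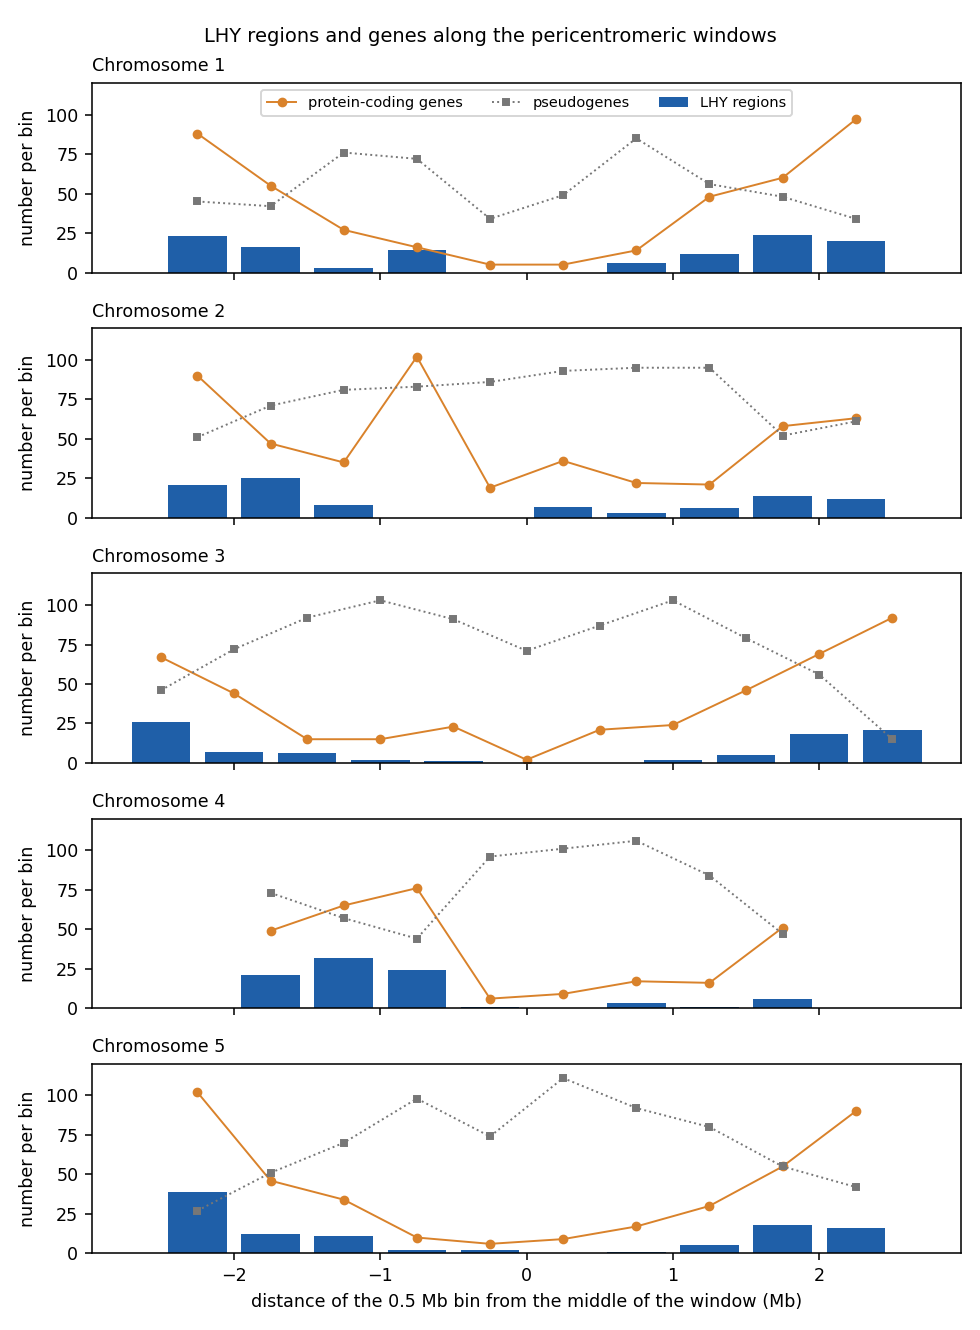
Number of LHY regions (bars), protein-coding genes (circles) and pseudogenes (squares) in each 0.5 Mb bin, plotted against the distance of the bin from the middle of the window in Mb, one panel a chromosome. Regions sit at the outer edges, 8 of 49 bins hold none, and chromosome 2 has a bin with 102 genes and no region.

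Each window had a long stretch with no region, and the genes inside it were few except on chromosome 2. On chromosome 1 the stretch was 1301 kb long with 11 protein-coding genes and 134 pseudogenes. On chromosome 3 it was 1267 kb with 34 protein-coding genes, and its right-hand border was one of the strongest regions of the whole list, next to CHR38. On chromosome 4 it was 807 kb with 29 protein-coding genes, bordered on the left by a region at RAP2.9, an AP2/ERF-type transcription factor gene. On chromosome 5 it was 944 kb with 13 protein-coding genes, bordered by regions at AT5G30490 and GolS10, a galactinol synthase gene, on the left and at XGD1, a xylogalacturonan xylosyltransferase gene, on the right. The stretch on chromosome 2 was 1235 kb long and held 143 protein-coding genes. It spans the interval from 3 to 4 Mb, with 121 protein-coding genes and 0 regions, and this pericentromere is known to carry a large insertion of mitochondrial DNA. Sequences with near-identical copies may not receive uniquely placed reads, and no source used here gives the treatment of reads from such copies. Without that 1 Mb, a choice made after seeing the data, chromosome 2 had 25.8 regions per 100 genes and a ratio to its arms of 0.435 (0.351 to 0.533), within the range of the other 4 chromosomes.

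The lower number of regions per gene was also seen between bins with the same number of genes. Bins of 100 kb were classed by their protein-coding genes. With 11 to 15 genes a bin, the 29 window bins had 30.5 regions per 100 genes (25.2 to 36.7) and the 14 arm bins 49.0 (39.6 to 59.9), a ratio of 0.624 (0.470 to 0.829). With 16 to 20 genes, 25 window bins had 25.6 per 100 genes against 69.3 in 77 arm bins, a ratio of 0.370 (0.301 to 0.450). With 21 to 25 genes, 12 window bins had 31.99 against 63.4 in 260 arm bins, a ratio of 0.504 (0.403 to 0.624). All 3 intervals lie below 1. Only 4 window bins held 26 to 30 genes, and they had 3 regions for 112 genes, or 2.68 per 100 genes (0.552 to 7.83) against 55.2 in the arms. With 31 genes or more there was 1 window bin, with 36 genes and 0 regions. The window bins include chromosome 2 from 3 to 3.5 Mb, with 102 genes and 0 regions, and the classes were not counted without it. The sparsest bins have no counterpart in the arms: 88 window bins with 1 to 5 genes had 18.4 regions per 100 genes (13.5 to 24.4), and 20 window bins with no protein-coding gene held 2 regions.

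**Figure D2:**
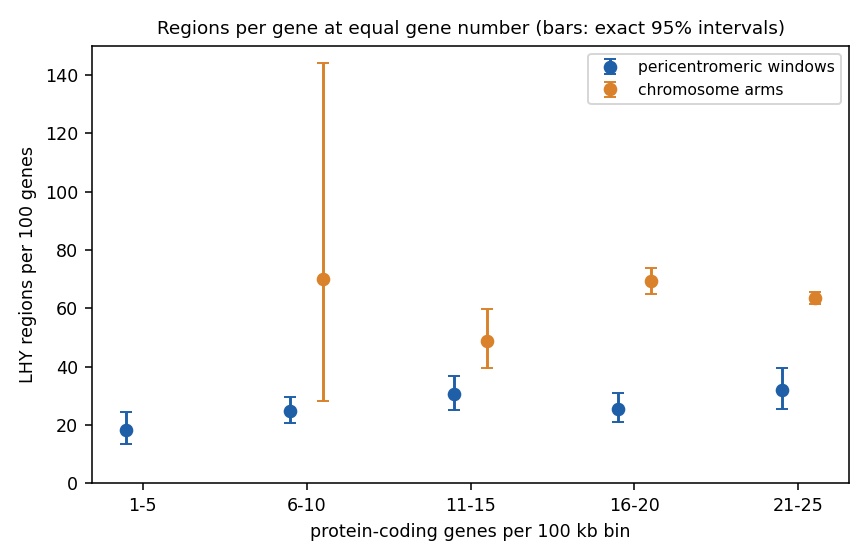
LHY regions per 100 protein-coding genes in 100 kb bins, classed by the number of genes in the bin, for windows (blue) and arms (orange), with exact 95% intervals. In the 5 classes plotted, up to 25 genes a bin, the window values lie between 18.4 and 31.99 and below the arm value wherever both exist (the arm class of 6 to 10 genes rests on 1 bin).

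Within the windows, regions kept close to genes although most of the sequence is far from any. A centre was classed as inside a protein-coding gene, in the flank within 1000 bp outside a gene end, or farther away. Inside genes lay 184 of the 496 centres (37.1%, 32.8 to 41.5%), in 16.2% of the base pairs. The flanks held 215 (43.3%, 38.9 to 47.8%), in 11.7% of the base pairs. The remaining 97 (19.6%, 16.2 to 23.3%) lay farther away, in 72.1% of the base pairs. Beyond 3 kb from a gene were 36 centres in 58.1% of the base pairs, and beyond 10 kb were 3 centres, or 0.605%, in 35.2% of the base pairs. Of arm regions, 34.7% were inside genes, 48.3% in flanks and 17.0% farther away. The arm shares inside genes and farther away lie within the intervals of the windows and the arm share in flanks lies just above, although genes make up 63.9% of the arm sequence.

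Set against the base pairs of each class, the windows were less dense than the arms in every class, least so inside genes and most so far from them. Inside genes the density was 46.4 centres per Mb against 81.6 in the arms, a ratio of 0.569 (0.488 to 0.659). In the flanks it was 74.8 against 320.2, a ratio of 0.234 (0.203 to 0.268). Farther away it was 5.49 against 190.6, a ratio of 0.0288 (0.0233 to 0.0353). The 3 intervals do not overlap. The farther class is unlike in windows and arms: 8.64 of its 17.66 Mb lay beyond 10 kb in the windows, and 0.0731 of 12.71 Mb in the arms. Its ratio therefore does not compare sequence at equal distance from genes. In the first 100 bp outside a gene end, windows had 229 centres per Mb (181.9 to 284.6) and arms 496.6 (474.6 to 519.4). From 1000 to 1100 bp outside, windows had 13.7 (2.82 to 39.9), from 3 centres, and arms 231.8 (203.4 to 263.2). Window bins near this distance varied, each resting on few centres. From 900 to 1000 bp windows had 34.85 (15.05 to 68.67), from 8 centres, against 231 in the arms. From 1200 to 1300 bp they had 33.78 (13.58 to 69.6), from 7 centres, against 233.7. Centres outside genes lay a median of 288 bp from the nearest gene end in the windows and 395 bp in the arms. Of the 184 centres inside genes, 108 were within 200 bp of a gene end (58.7%, 51.2 to 65.9%), much as in the arms (60.5%).

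**Figure D3:**
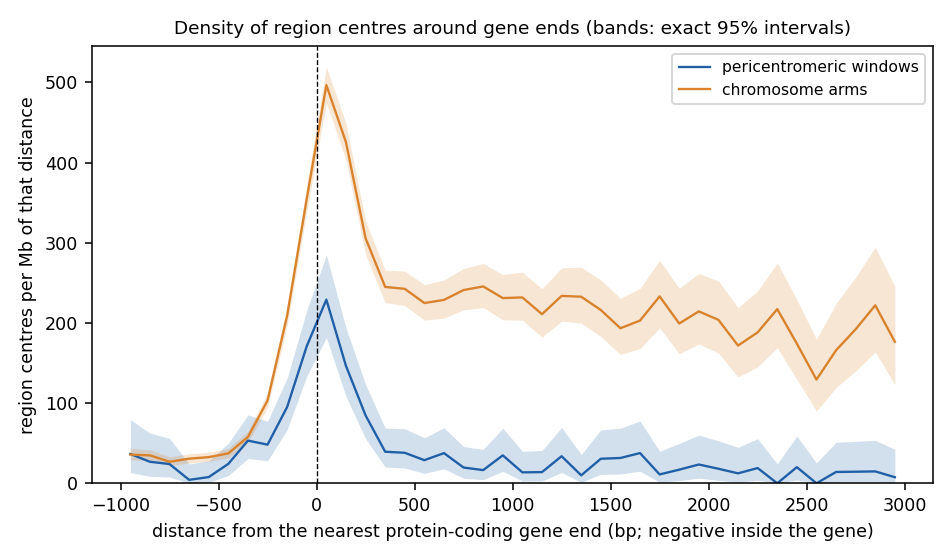
Density of region centres, in centres per Mb of sequence at that distance, against distance from the nearest protein-coding gene end in bp (negative inside the gene), for windows (blue) and arms (orange) with exact 95% intervals. Both peak in the first 100 bp outside the gene end, at 229 and 496.6 per Mb, and the window curve then drops to a lower level than the arm curve.

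Regions were rare in pseudogenes, which in this annotation include many transposon remnants. Only 7 of the 496 were centred in a pseudogene (1.41%, 0.569 to 2.89%), whereas pseudogenes make up 32.1% of the window sequence. In the arms, 34 of 14222 regions were centred in a pseudogene (0.239%, 0.166 to 0.334%), in 2.74% of the sequence. Centres in pseudogenes were thus scarce for their share of sequence in windows and arms alike. Per Mb of pseudogene the windows had 0.890 centres and the arms 13.1, values that include the lower density of the windows as a whole. Another 7 members were centred in genes for long non-coding RNAs, and 130 reached no gene of any annotated type. Among the members, 128 had another member within 1 kb and 344 within 10 kb, with a median distance of 3.44 kb, while 20 were over 100 kb from the next. Spacing was not counted for the denser arm regions, so these values describe the members only.

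The regions that did occur had scores in much the same range as those in the arms. The score is a value of the authors. No source used here states its scale, and it serves to rank regions within this list only. The median was 11.3 in the windows (quartiles 6.48 and 23.0, range 2.08 to 176.8) and 10.06 in the arms (quartiles 5.67 and 22.3), and 55.4% of members (51.0 to 59.9%) were above the arm median. Of the strongest 10% of the whole list, 52 regions were pericentromeric, which is 10.5% of the members (7.93 to 13.5%). By class, the median score was 11.03 inside genes, 11.8 in flanks and 10.6 farther away. By chromosome it ran from 10.7 on chromosome 4 to 12.7 on chromosome 5. Among regions above the median score of the whole list alone, the arm median was taken anew from the arm regions kept. Of the members kept, 47.3% were above that higher median (41.2 to 53.4%), which is another cut than that of the 55.4%. The median width was 294 bp in the windows and 285 bp in the arms, with upper quartiles of 442 and 496 bp. The share of members wider than the arm median was 51.2% (46.7 to 55.7%). With the arm median width taken anew in each set, it was 39.3% among regions above the median score and 42.3% among the strongest 10%. It was 45.8% once regions within 200 bp were merged, so no direction is given for width.

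**Figure D4:**
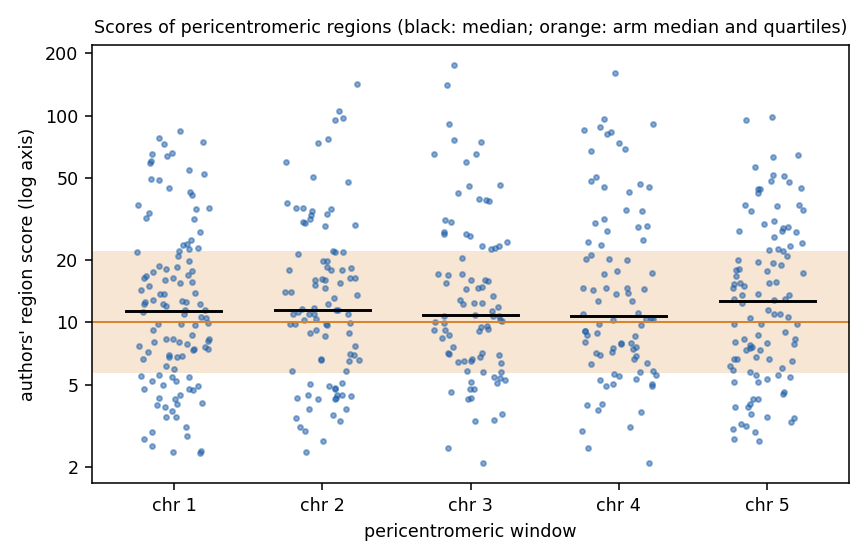
The authors' score of each of the 496 pericentromeric regions (points, log axis) by chromosome, with the window median (black line) and the median and quartiles of arm regions (orange line and band). The 5 window medians lie between 10.7 and 12.7, just above the arm median of 10.06, and scores span 2.08 to 176.8.

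Fewer genes of the windows were reached than of the arms. A gene counted as reached when a region centre lay from 1000 bp outside to 200 bp inside either of its ends. In the windows 329 of 2014 protein-coding genes were reached (16.3%, 14.8 to 18.0%), beside 40.8% of all 27432 protein-coding genes (11195) and 42.7% of arm genes. By chromosome the count was 82 of 415 on chromosome 1 (19.8%), 64 of 493 on chromosome 2 (12.98%), 49 of 418 on chromosome 3 (11.7%), 66 of 289 on chromosome 4 (22.8%) and 68 of 399 on chromosome 5 (17.0%). Window genes with a symbol of their own were reached more often, 144 of 491 (29.3%, 25.3 to 33.6%), than those known only by a locus name, 185 of 1523 (12.1%, 10.6 to 13.9%). In the arms the shares were 48.7% and 39.0%. Only 24.4% of window genes have a symbol, against 38.8% of arm genes. The strongest region at a reached gene had a median score of 13.5 in the windows and 13.7 in the arms.

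Seen from the regions, 265 members reached 1 protein-coding gene, 65 reached 2 or more, and 166 reached none (33.5%, 29.3 to 37.8%, against 26.9% in the arms). Of those 166, 69 were centred inside a gene but deeper than 200 bp from its end. Among the 329 reached genes, 60 had 2 or more regions and 9 had 3 or more, counts with no arm value beside them here. These 9 included GID1C, a gibberellin receptor gene, with 3 regions and a top score of 51.0, and GSL05, a callose synthase gene, with 3 and a top score of 21.2. SFP1, a sugar transporter gene, had 3 and a top score of 42.4, and AT4G05070 had 4 and a top score of 68.7. AT4G05060 and AT4G05071, with 3 each, are also among the 9 and share regions with AT4G05070, so the 9 are not separate cases.

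The share reached varied among the other gene types. Of 3432 window pseudogenes 33 were reached (0.962%), against 16.6% of those in the arms. Of 382 long non-coding RNA genes 32 were reached (8.38%, 5.80 to 11.6%), against 37.7% in the arms. Of 41 tRNA genes 1 was reached (2.44%, 0.0617 to 12.9%, against 26.5% in the arms), and of 43 miRNA genes 3 (6.98%, 1.46 to 19.1%, against 25.4%). The small nuclear and nucleolar RNA genes did not have lower shares than in the arms: 5 of 13 snoRNA genes were reached (38.5%, 13.9 to 68.4%, against 37.6%) and 4 of 4 snRNA genes (39.8 to 100%, against 33.3%), both from few genes. A single region reached the snoRNA genes AT2G05765, AT2G04955 and AT2G04965, and another the snRNA genes U1.14p and U4.10. The intervals treat each gene as separate, so they are too narrow for these types. Protein-coding genes also share regions, since 65 members reached 2 or more of them, so their intervals may be too narrow as well.

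The strongest pericentromeric regions included members at PHS1, CHR38 and FIB that were among the leading regions of the whole list. Of the 4 highest-scoring members of each window, the first overall was on chromosome 3 from 11252272 to 11252961 (TAIR9), with a score of 176.8, the 3rd of 14718. Its centre was 191 bp outside PHS1, which encodes the plastid starch phosphorylase, and it also reached AT3G29310. The next on that chromosome, from 14760398 to 14761186, scored 140.7 and ranked 33rd. It lay 163 bp outside CHR38, which encodes the chromatin remodeller CLASSY1 of RNA-directed DNA methylation, the pathway that directs methylation to transposons. The others on chromosome 3 were at FAMT, a farnesoic acid methyltransferase gene, with a score of 91.5, and at AT3G29034 with 75.9.

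Chromosome 4 had the 9th strongest region of the list, from 1931074 to 1932075 with a score of 160.4, centred 309 bp outside FIB, which encodes a fibrillin, a structural protein of chloroplast lipid bodies. The next members there were at MSRB5, a methionine sulfoxide reductase gene (score 96.2), inside the edge of KEA3, a thylakoid potassium/proton antiporter gene (91.2), and outside WRKY42, a WRKY transcription factor gene (87.8). MSRB5 had 3 regions in reach.

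On chromosome 2 the strongest member reached no gene at all. It ran from 5053100 to 5053860, scored 142.3 and ranked 29th, and its centre was 1867 bp from the nearest protein-coding gene, AT2G12462. The region at AT2G14880 scored 105.7. A region from 4743755 to 4744467 scored 97.1 and was centred 949 bp inside MGDC, which encodes a galactolipid synthase. The region 48 bp outside GRP-3, a glycine-rich protein gene, scored 95.5.

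On chromosome 1 the top member scored 84.8. It was centred 4 bp outside GF14 PHI, a gene of the 14-3-3 family of phosphoprotein-binding regulators, and also reached AT1G35150. It was followed by a region in the edge of ILL6, an amidohydrolase gene of auxin and jasmonate conjugates (78.4), one at AT1G35420 (74.4), and one that reached both SIAR1, an amino acid exporter gene, and AT1G44790 (72.7).

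On chromosome 5, only 1 of the 4 leading members reached a gene by the measure used, the region at AT5G30495 with a score of 98.2. A region scoring 95.6 was centred 268 bp inside CNI1, a ubiquitin ligase gene of the response to carbon and nitrogen supply, and one scoring 64.6 was 295 bp inside AT5G35735. The fourth, 1677 bp wide with a score of 63.0, was centred 1646 bp from BZO2H3, a bZIP transcription factor gene of the low-energy response.

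The genes on 5 lists of well-studied pericentromeric genes were reached in 31 of 71 cases (43.7%, 31.9 to 56.0%). This stands beside 40.8% for all genes, 16.3% for window genes and 29.3% for window genes with a symbol. The lists were drawn up with earlier results of these data known and hold named genes only, so the counts describe the listed genes and nothing is read from their excess over the window share.

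Of 17 listed genes for photosynthesis and the chloroplast, 10 were reached (58.8%, 32.9 to 81.6%). Their strongest regions had a median score of 29.8. After FIB came LHCB2.1, a light-harvesting chlorophyll protein gene, with 77.6, then ABCI8, a gene for plastid iron-sulphur cluster assembly, with 67.6. ATPC1, for the gamma subunit of the chloroplast ATP synthase, had 3 regions and a top score of 35.1. PSBQ-2, for an oxygen-evolving complex protein, had 30.3, and PSBX, for a small photosystem II subunit, had 29.3 from a region that also reached RPA1A and VPS2.1. Among the 7 with no region in reach were NPQ4, Lhca5, PGR5 and ACD1, which act in photoprotection, light harvesting, cyclic electron flow and chlorophyll breakdown. NPQ4 nevertheless had a region of score 19.9 centred 1249 bp inside the gene, and one of 9.90 centred 1007 bp outside it, just past the 1000 bp limit.

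Of 15 listed genes for carbon and nitrogen metabolism, 9 were reached (60.0%, 32.3 to 83.7%), with a median score of 21.9. PHS1 had the highest score. ERD5, the proline dehydrogenase gene, had a region of score 65.5 centred 403 bp outside. FUR1, a nucleoside transporter gene, had 45.0, and AGT, for an aminotransferase of photorespiration, had 33.6. ALDH6B2, an aldehyde dehydrogenase gene, had 21.9 in reach and 35.2 at 386 bp inside. NIA2, which encodes nitrate reductase, had 18.1 in reach, and its strongest region, at 66.2, was centred 237 bp inside. No region reached ACC1, ACO3, CAS1 or SUS4, which encode acetyl-CoA carboxylase, an aconitase, cycloartenol synthase and a sucrose synthase.

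Of 12 listed genes for light, clock and hormone signalling, 4 were reached (33.3%, 9.93 to 65.1%), with a median score of 12.9. BZO2H3 had a region of 30.8 at 21 bp inside its end, besides the stronger one farther away. ABF2, an abscisic acid bZIP factor gene, had 16.5, BR6OX2, for the last step of brassinolide synthesis, had 9.25, and PHYC, for phytochrome C, had 5.58. VIP1, ABH1, AHP2 and DPBF2 were among the 8 with none.

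Of 14 listed genes for stress and defence, 6 were reached (42.9%, 17.7 to 71.1%). After GRP-3 with 95.5, ANNAT1, an annexin gene, had 65.0, and RD21A, a cysteine protease gene, had 52.2. STOP1, for a zinc finger factor of acid soil tolerance, had 35.2, NHX1, for a vacuolar sodium/proton antiporter, had 17.3, and RAP2.1, for an AP2/ERF repressor, had 2.52. The 8 with none included ALD1, LURP1 and PR1, all 3 of them pathogen response genes on chromosome 2, and the chaperone gene J3.

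Of 13 listed genes for growth and cell biology, 2 were reached (15.4%, 1.92 to 45.5%), namely UBQ10, a polyubiquitin gene, with 48.5, and XTH4, a cell wall xyloglucan enzyme gene, with 9.17. XTH4 also had a region of 47.8 at 897 bp inside. AN3, a transcriptional coactivator gene of leaf growth, was not reached by this measure, but a region of 51.6 was centred 268 bp inside it. PMI1, SEU, CYCA1;1 and HSFB4 were among the 11 not reached.

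**Figure D5:**
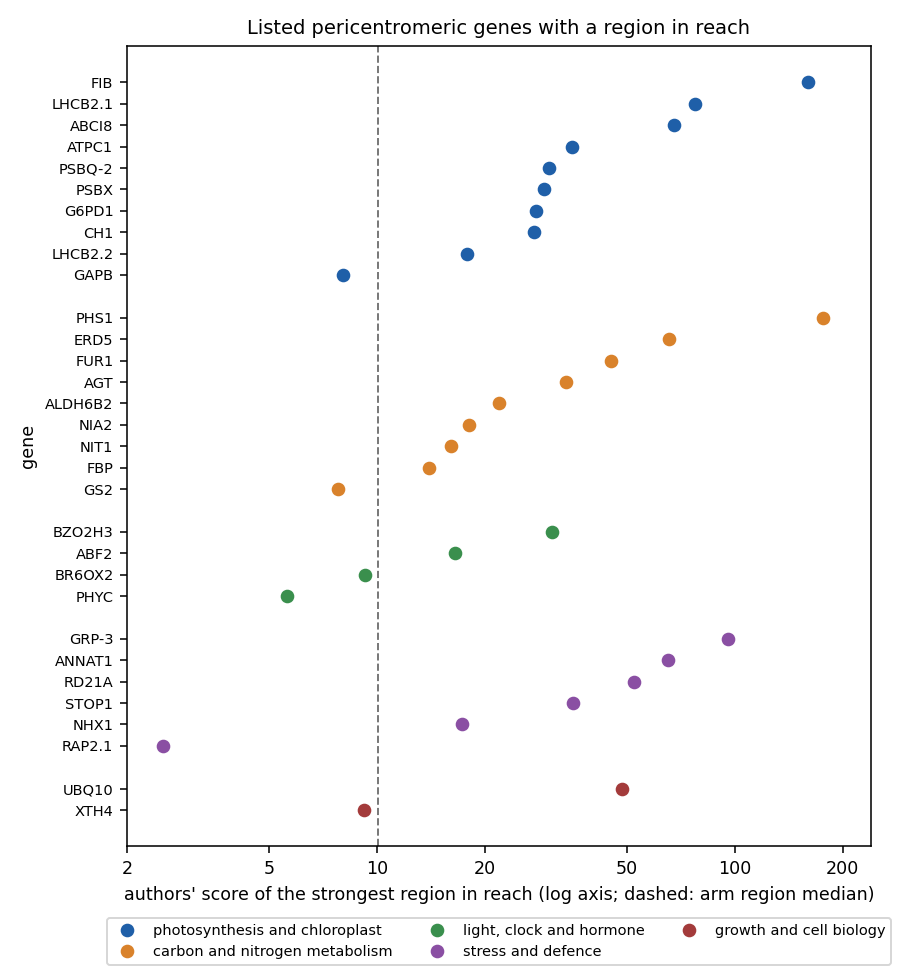
The authors' score (log axis) of the strongest region in reach of each of the 31 listed pericentromeric genes that were reached, coloured by list. PHS1 (176.8) and FIB (160.4) lead, and the dashed line marks the arm median of 10.06.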

How the data were processed

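The authors deposited 1 list of regions (start, end and score) for wild type against lhy-21. Bowtie, MACS2 2.0.10.09132012 and TAIR9 are named per the submitters' processing notes, and the pooling of 9 samples a library per the labels. No source used here gives read filters, the peak threshold or reads per library, so the depth is unknown and a region missing from the list shows no absence of binding. The unit of the score is not stated in the deposited file.

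Centres are midpoints, counted from 1. Genes came from a RefSeq table of TAIR10.1 (27432 protein-coding, 37887 of all types on the 5 chromosomes). TAIR9 and TAIR10 share their nuclear chromosome sequences, but gene models may differ. This reference is of the Columbia strain, and what differences from Ws did to read placement was not tested. When the members were moved by 500 or 1000 bp to either side, the share inside genes rose from 37.1% to between 40.5 and 48.8%, except on chromosome 5, where shifts of 500 and 1000 bp to the right gave 38.7% and 40.6% against 44.3% unshifted. Counts were divided by Mb or genes, with exact (Clopper-Pearson or Poisson) 95% intervals, in Python 3.11.15 with pandas 2.3.3, numpy 2.4.6, scipy 1.17.1 and matplotlib 3.10.9. The calculations were tested on simulated data.

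The members, gene lists and rules were chosen with earlier results of these data known. Named are the 4 strongest members of each window, borders of the longest empty stretches, and, per list, up to 6 reached and 4 unreached genes. Others, among them genes with 3 or more regions, genes with a region deeper inside, NIA2 and MIR396 loci, were chosen after their values were seen. Sequence motifs and gene starts alone were not analysed here.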

Additional observations from a re-analysis of the deposited data

How the results depend on the processing

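The lower density and the lower share of genes reached in the windows were seen under every alternative tried, with sizes that moved. Main values were 0.135 per Mb and 0.440 per gene (window to arm), 16.3% reached (0.382 of the arm share), 43.3% in flanks and 19.6% farther away. Regions above the median score gave 0.15 per Mb, 0.490 per gene and 10.3% reached (arms 26.3%). Arm medians here and below were taken anew from the arm regions of each set. The shares of members above them were 47.3% for score and 39.3% for width. In the main set these shares were 55.4% and 51.2%, against other cuts. The strongest 10% gave 1.99% reached (arms 6.15%), 51.9% in flanks, 13.5% farther away and 42.3% above the arm median width. Windows narrowed by 1 Mb at both edges gave 0.0569 per Mb, 0.312 per gene, 10.3% reached (0.240 of the arm share), 38.7% in flanks and 26.6% farther away. Merging regions within 200 bp put 45.8% above the arm median width. Genes of all types gave 0.183 per gene and 7.02% reached (0.174 of the arm share). By construction, a reach of 500 bp gave 13.8% reached, 36.3% in flanks and 26.6% farther away, a reach of 3000 bp gave 25.1%, 55.6% and 7.26%, the nearest end only gave 13.7% reached, and base pairs within 3000 bp of genes gave 0.297 per Mb. In bins of 1 Mb, 4.00% were empty (1 of 25) against 16.3%. Added after seeing the data, counting whole gene bodies gave 18.1% reached (arms 45.2%, a ratio of 0.401), and genes with a symbol 29.3% (0.602 of the arm share). No paired analysis was possible because each genotype has 1 library. Sequence copies and read depth, not analysed here, limit what a missing region means.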

Other observations

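The inner part of the chromosome 1 window had one crowded spot, noticed after the values were seen. The bin from 14 to 14.5 Mb held 14 regions for 16 protein-coding genes, which is 87.5 per 100 genes, the highest value of the 49 bins. Of these, 10 lay within 12 kb of NIA2, over 20.9 kb, with scores from 2.33 to 66.2 and a median of 6.32. Besides the region of 66.2 inside the gene, one of 44.6 lay 9272 bp away.

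Both pericentromeric MIR396 genes, which encode the miRNA that targets mRNAs of GRF growth-regulating factors, had regions close by, also noticed after the values were seen. At MIR396a on chromosome 2, regions of score 15.2 and 2.99 were centred 114 and 731 bp from the gene. The first of them is the right-hand border of the empty stretch of that chromosome. At MIR396b on chromosome 5, regions of 15.5 and 5.33 were centred 166 and 600 bp away, and one of 28.6 lay at 2388 bp. The third miRNA gene with a region within 1000 bp was MIR5024 on chromosome 1, with a score of 12.8 at 49 bp.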
